A study of Mus musculus with 2 samples.

Results

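Melanocyte pigment genes were followed in skin wounds of neonatal mice with and without PU.1, the transcription factor of blood cell development that Spi1 encodes. The members are 10 gene symbols chosen by name, of 24346 listed: the melanin enzymes Tyr, Tyrp1 and Dct, the melanosome proteins Pmel and Mlana, the melanosome membrane proteins Slc45a2, Oca2 and Gpr143, the receptor Mc1r and the transcription factor Mitf. All 10 were measured above 0 in both libraries. Pups of 1 day, wild-type (WT) or PU.1-/- littermates of the C57BL/6J strain, received a full-thickness dorsal incision of 1 cm, and wound tissue was taken 24 h later for bulk mRNA sequencing as 1 library per genotype. The labels name no cell type to which the deletion is limited, and PU.1-/- mice have no macrophages, neutrophils, mast cells or T cells according to the study. The sources used here do not say how many pups went into each library. The series' design text calls the wounds excisional, the study's methods incisional. Levels are FPKM, fragments scaled by exon length and by the mapped fragments of the library, so that they can be compared between genes. There were no replicates, so no difference was tested. Intervals in square brackets are exact binomial intervals at 95% on estimated reads, which cover counting error only.

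Melanocytes arise from the neural crest and make melanin in melanosomes, organelles related to the lysosome. TYR oxidises tyrosine at the start of the pathway, and TYRP1 and DCT act on later intermediates of black and brown pigment. PMEL builds the fibrils on which melanin is laid down. MITF drives many of these genes, and MC1R receives the melanocortin signal that favours dark pigment. In neonatal mouse skin most pigment is made in the growing hair follicles, and Mitf is also used by mast cells and osteoclasts, which are not pigment cells. In whole tissue, fewer cells of a type and less RNA per cell cannot be told apart.

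The stretches of 250 bases before the annotated start of 4 members are shown because each holds the M-box TCATGTG, a DNA word that MITF is known to bind. Capitals mark the M-box, read on either strand, each sequence runs 5′ to 3′ along its gene, and all are from RefSeq on GRCm38.p6, the assembly of mm10.
Tyr, chr7:87493513-87493762, minus strand: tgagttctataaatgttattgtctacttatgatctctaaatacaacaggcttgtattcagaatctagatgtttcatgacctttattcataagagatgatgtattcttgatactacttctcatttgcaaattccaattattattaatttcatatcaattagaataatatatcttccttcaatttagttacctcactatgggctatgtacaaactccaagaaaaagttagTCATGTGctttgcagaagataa
Tyrp1, chr4:80833963-80834212, plus strand: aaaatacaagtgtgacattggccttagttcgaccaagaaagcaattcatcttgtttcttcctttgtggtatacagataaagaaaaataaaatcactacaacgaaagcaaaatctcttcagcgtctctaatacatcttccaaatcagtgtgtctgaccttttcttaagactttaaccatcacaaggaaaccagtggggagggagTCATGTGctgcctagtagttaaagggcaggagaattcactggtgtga
Dct, chr14:118052247-118052496, minus strand: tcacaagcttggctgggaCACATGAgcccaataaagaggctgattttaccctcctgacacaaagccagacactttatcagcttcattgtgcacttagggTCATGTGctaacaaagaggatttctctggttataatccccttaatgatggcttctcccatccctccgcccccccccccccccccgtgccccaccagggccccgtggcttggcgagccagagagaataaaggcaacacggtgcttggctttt
Mc1r, chr8:123406832-123407081, plus strand: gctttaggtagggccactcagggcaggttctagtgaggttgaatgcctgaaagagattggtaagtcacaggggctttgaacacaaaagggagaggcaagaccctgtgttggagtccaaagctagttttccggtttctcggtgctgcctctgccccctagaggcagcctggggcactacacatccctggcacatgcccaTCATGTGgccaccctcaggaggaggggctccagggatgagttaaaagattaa
The third start of Mitf, the one nearest to the shared exons, which is the start of the melanocyte form, is given for comparison. It holds no M-box.
Mitf, chr6:97991533-97991782, plus strand: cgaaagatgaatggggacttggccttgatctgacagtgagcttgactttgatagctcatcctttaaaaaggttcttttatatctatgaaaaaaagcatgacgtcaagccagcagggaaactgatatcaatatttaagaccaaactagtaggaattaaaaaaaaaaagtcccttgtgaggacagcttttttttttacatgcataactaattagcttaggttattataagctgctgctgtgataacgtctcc

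RefSeq windows from 250 bases before to 50 after a start were found for 6 of the 10 members, in 8 windows, since Mitf has 3 of them. Those of Pmel, Mlana, Slc45a2 and Gpr143 were not analysed here. The M-box lay in 4 of the 8 windows, against 3.77% of all 32851 windows. Counted from the RefSeq start, its first base was at −22 in Tyr, −47 in Tyrp1 and −52 in Mc1r, each on the gene's own strand. Dct held 2 copies, at −151 on its own strand and at −232 on the opposite strand. The shorter E-box CATGTG is part of every M-box, and lay in 14.2% of all windows and in 5 of the 8. Outside an M-box it was found in Oca2, at −186, and once more in Mc1r, at −62, both on the opposite strand. The E-box CACGTG (7.15% of all windows) and the SOX motif AACAAT (10.7%) were in none of the 8. TATAAA (13.6%) was in the windows of Tyr and of the third Mitf start. A match is a run of letters and does not show that a factor binds there.

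**Figure D1:**
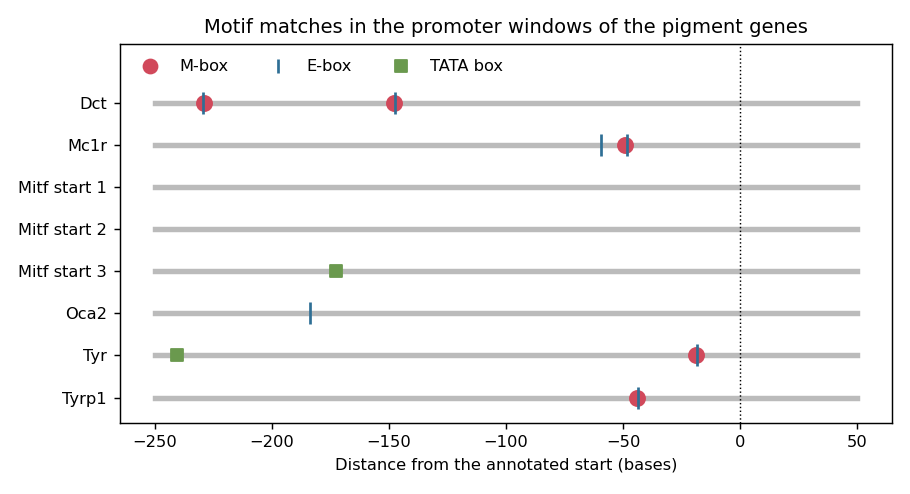
Positions of the motif matches (symbols) in the 8 promoter windows of 6 members (grey bars), in bases from the annotated start (dotted line), both strands searched. The M-box is present in Dct, Mc1r, Tyr and Tyrp1 and in none of the 3 Mitf windows.

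None of the 10 pigment genes differed between the libraries by 2-fold. Over all listed genes 4.34% were at least 2-fold lower in the PU.1-/- wound and 2.32% at least 2-fold higher. These 1057 and 565 genes all lie among the 16298 that reached 0.1 FPKM in either library. The floor of 0.1 FPKM keeps the other listed genes from any call, so these shares are lower than among measured genes. No member reached 1.5-fold either, a limit that 13.5% of all listed genes passed in one direction or the other. Oca2, with a PU.1-/- over WT ratio of 0.670 on about 52 and 40 reads, lay just inside it. The PU.1-/- over WT ratios of the members ran from 0.670 for Oca2 to 1.30 for Slc45a2, with 7 members above 1 and 3 below. Their median log2 ratio was 0.06, beside −0.01 for the 16298 genes that reached 0.1 FPKM in either library. Of those genes, 7994 were above 0 and 8304 below. Within 1.25-fold, a limit set after the values were seen, lay 7 members, and 69.9% of the 13237 genes that reached 1 FPKM in either library. The share of members this close to equality was thus near that of the tissue's genes in general. Their summed level was 223 FPKM (WT) and 246 FPKM (PU.1-/-), of which Dct alone made up 38.6% and 40.01%.

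**Figure D2:**
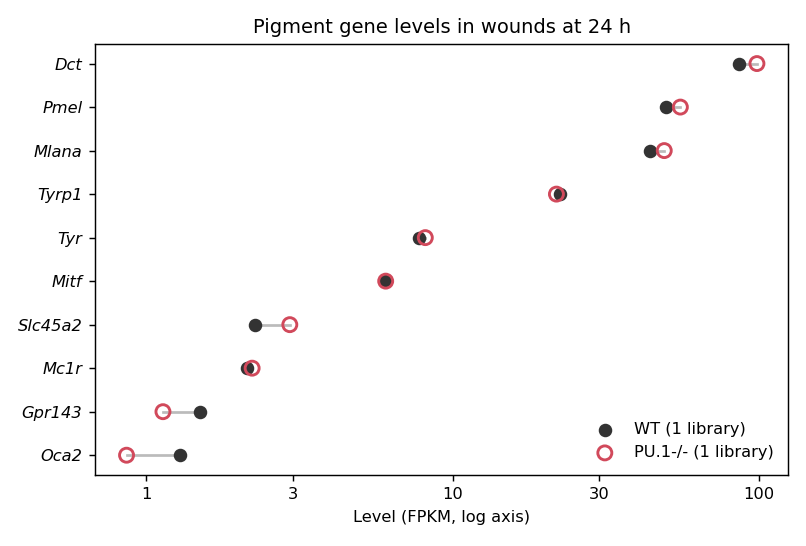
Level of each pigment gene in FPKM (log axis) in the WT wound (filled points) and the PU.1-/- wound (open circles), 1 library each, without error bars because there are no replicates. The order from Dct at the top to Oca2 at the bottom is the same in both, and the points of Tyrp1, Tyr, Mitf and Mc1r nearly coincide.

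The 3 melanin enzymes stood at very different levels, in the same order in both wounds. Dct, dopachrome tautomerase, on chromosome 14 from 118012790 to 118052185 with 8 exons, was the most abundant member, with 86.2 FPKM (WT) and 98.4 FPKM (PU.1-/-). It ranked 1050th and 880th among all listed genes. The ratio was 1.14 [1.08 to 1.20], on about 2384 and 3123 reads. Tyrp1, tyrosinase-related protein 1, on chromosome 4 from 80834230 to 80851718, had 22.3 FPKM (WT) and 21.8 FPKM (PU.1-/-), which gives a ratio of 0.976 [0.884 to 1.08]. Tyr, the rate-limiting enzyme, on chromosome 7 from 87424771 to 87493512, had 7.79 FPKM (WT) and 8.14 FPKM (PU.1-/-), which gives a ratio of 1.04 [0.939 to 1.16]. The level of Tyr was thus below that of both related enzymes. Such comparisons between genes depend on the transcript lengths behind the FPKM. The lengths taken here are 6042 nt for Tyr, 2720 nt for Tyrp1 and 2202 nt for Dct. Dct was 3.86 times the level of Tyrp1 in the WT wound and 4.51 times in the PU.1-/- wound, and 11.1 and 12.1 times that of Tyr. No stretch of 75 bases, the read length, was shared among the 3 enzyme transcripts, so that their reads could be kept apart. Of the 5968 words of 75 bases in the Tyr transcript, 5 also occur in transcripts of other genes.

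The melanosome proteins moved little and alike. Pmel, which forms the fibrils of the early melanosome, on chromosome 10 from 128706258 to 128720238, had 49.6 FPKM (WT) and 55.3 FPKM (PU.1-/-), which gives a ratio of 1.11 [1.04 to 1.20]. Mlana, a small membrane protein of melanosomes, on chromosome 19 from 29697824 to 29708634, had 44.05 FPKM (WT) and 49.0 FPKM (PU.1-/-), which gives a ratio of 1.11 [0.978 to 1.26]. The ratio of Pmel over Mlana was 1.13 in both wounds. Dct and Pmel were the 2 members whose counting interval lay above 1 in the deposited scaling. With both libraries set to the same FPKM sum, those of Mlana and Slc45a2 did so too, which makes 4. The spread between animals, which is not measured here, is not part of that interval. The end of Pmel overlaps that of Dgka, which runs on the opposite strand, by 105 bases. Dgka had 12.7 FPKM (WT) and 14.5 FPKM (PU.1-/-), and the libraries were made with a stranded kit, but the sources used here do not say whether the counting used the strand.

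The 3 melanosome membrane proteins were low and gave the widest intervals. Slc45a2, a transporter that affects melanosome acidity, on chromosome 15 from 11000721 to 11029233, had 2.26 FPKM (WT) and 2.94 FPKM (PU.1-/-). Its ratio of 1.30 [0.984 to 1.73], from about 87 and 130 reads, was the highest of the members. Oca2, an anion channel protein of the melanosome, on chromosome 7 from 56239760 to 56536518 with 24 exons, had 1.29 FPKM (WT) and 0.862 FPKM (PU.1-/-). Its ratio of 0.670 [0.432 to 1.03] rested on about 52 and 40 reads and was the lowest. The deposited ratio is that of 13 to 10 reads or a multiple of it, and 52 and 40 are such a multiple. The rounded estimates of the other members are not exact multiples, so this match is no check of the read estimates. For Gpr143 the ratio is that of 15 to 13 reads, beside estimates of about 29 and 25. Gpr143, a receptor inside pigment cells that limits melanosome size, on the X chromosome from 152781986 to 152808646, had 1.501 FPKM (WT) and 1.13 FPKM (PU.1-/-). Its ratio was 0.755 [0.422 to 1.33], on about 29 and 25 reads. For Oca2 and Gpr143 the counting intervals reach beyond 2-fold lower, so at this depth a 2-fold fall cannot be told from no difference. The intervals of the other 8 members lie within 2-fold on either side.

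**Figure D3:**
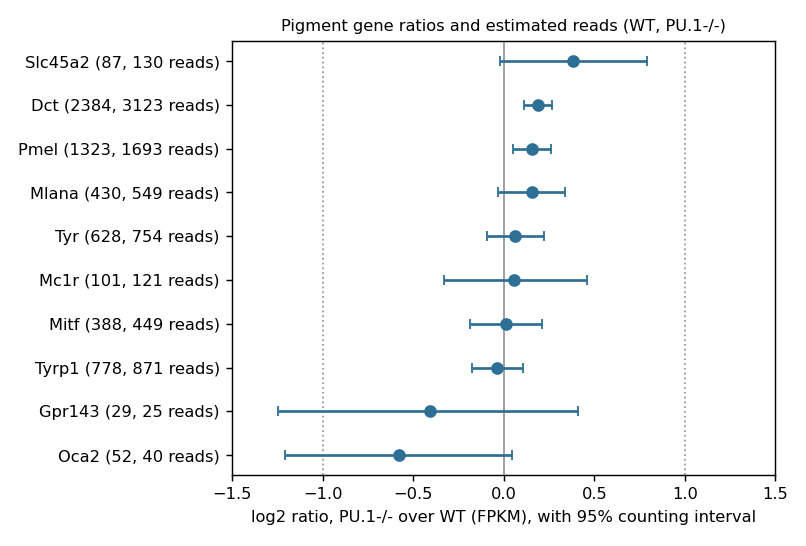
The log2 ratio of PU.1-/- over WT for each pigment gene (points) with its 95% counting interval (bars) and the estimated reads in brackets, WT first. Dotted lines mark 2-fold. Only the bars of Dct and Pmel lie to the right of 0, and the bars widen as the reads fall towards Gpr143 and Oca2.

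Sex differed between the libraries, and Gpr143 is an X-linked gene. Xist, made by the inactive X chromosome, was listed at 0 in WT and had 9.48 FPKM in PU.1-/-. Ddx3y, Eif2s3y, Kdm5d and Uty, on the Y chromosome, ran from 2.16 to 38.5 FPKM in WT and were each listed at 0 in PU.1-/-. Genotype and sex cannot be told apart in these 2 libraries, for any of the members. The median log2 ratio of 395 X-linked genes that reached 1 FPKM in either library was 0.02. That of Gpr143 was −0.41, with a counting interval of its ratio from 0.422 to 1.33, which holds 1. Whether sex bears on Gpr143 was not tested.

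Mitf, on chromosome 6 from 97807058 to 98021349, had 5.99 FPKM (WT) and 6.04 FPKM (PU.1-/-). Its ratio of 1.01 [0.878 to 1.16] was the closest to 1 of the 10 members in the deposited values. The gene has 3 RefSeq-linked transcripts with different starts, of 1921 to 4881 nt, and the deposited level does not separate them. With the shortest transcript the estimated reads would be 143 and 165 and the interval 0.798 to 1.27. Mc1r, on chromosome 8 from 123407107 to 123410744 with a single exon, had 2.13 FPKM (WT) and 2.21 FPKM (PU.1-/-), which gives a ratio of 1.04 [0.794 to 1.37]. Of its 3564 words of 75 bases, 579 also occur on the opposite strand in the antisense transcript Gm38092, so those reads could be assigned only if the counting used the strand. Tubb3, a neuronal tubulin that starts 679 bases after Mc1r, had 19.6 FPKM (WT) and 9.38 FPKM (PU.1-/-).

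The order of the levels, Dct, Pmel, Mlana, Tyrp1, Tyr, Mitf, Slc45a2, Mc1r, Gpr143 and Oca2, was the same in both libraries. In each library Dct, Pmel, Mlana, Tyrp1, Tyr and Mitf each exceeded the next gene below by more than counting error. The closest of these pairs was Pmel over Mlana, at 1.13 [1.01 to 1.26] in WT and 1.13 [1.02 to 1.24] in PU.1-/-. In the WT wound the neighbours among Slc45a2, Mc1r, Gpr143 and Oca2 did not differ beyond counting error. In the PU.1-/- wound this held for Gpr143 over Oca2 alone, at 1.31 [0.769 to 2.23].

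Beside the members, the levels of 3 markers of pigment cells outside the set are given. Slc24a5, a melanosome ion exchanger, had 5.38 FPKM (WT) and 6.16 FPKM (PU.1-/-). Trpm1, a channel that MITF is known to drive, had 9.27 and 9.44 FPKM. Sox10, which acts in melanocytes and in Schwann cells, had 7.25 and 9.44 FPKM. All 3 were thus measured in both wounds at levels near those of Tyr and Mitf. In whole tissue this does not show which cells held the RNA of the members. Of the 10 lineage factors and receptors, none was called at 2-fold in either direction, and their median log2 ratio was 0.24. Erbb3, a neuregulin receptor of neural crest and epithelial cells, was the most abundant, with 33.3 FPKM (WT) and 43.6 FPKM (PU.1-/-). Ednrb, the endothelin receptor of melanoblasts that blood vessels also carry, had 27.9 and 19.8 FPKM, which gives a ratio of 0.710 [0.658 to 0.766]. Tfap2a (24.7 and 29.2 FPKM) and Snai2 (15.8 and 17.1 FPKM), transcription factors of neural crest and epidermis, were next. Kit, the stem cell factor receptor of melanoblasts and mast cells, is named after its values were seen, with 8.08 FPKM (WT) and 5.77 FPKM (PU.1-/-).

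Among 14 further genes of melanosome cargo, ion transport and movement, 2 were at least 2-fold lower and none higher, with a median log2 ratio of −0.05. The first was Rab32, a small GTPase of cargo delivery to melanosomes that macrophages also use, with 12.0 FPKM (WT) and 3.81 FPKM (PU.1-/-), which gives a ratio of 0.317 [0.255 to 0.393]. Its closest relative in melanosome delivery, Rab38, had 19.4 and 17.6 FPKM, which gives a ratio of 0.908 [0.785 to 1.05]. The second was Slc7a11, the cystine transporter that feeds yellow pigment and glutathione, with 5.75 and 2.59 FPKM, which gives a ratio of 0.450 [0.396 to 0.511]. Gpnmb, a PMEL relative found in pigment cells and macrophages, had 13.7 and 19.7 FPKM. Mreg, which acts in melanosome transfer, had 24.1 and 24.8 FPKM, and Cd63, a general late endosome protein, had 662 and 666 FPKM. The 19 genes of the sorting complexes that melanosomes share with lysosomes held no call, and their median log2 ratio was −0.12. Their most abundant genes were Bloc1s1, with 133 and 109 FPKM, Ap3s1, with 55.8 and 50.5 FPKM, Dtnbp1, with 52.3 and 46.6 FPKM, and Bloc1s2, with 40.7 and 37.5 FPKM.

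All 3 relatives of Mitf in the MiT family were lower in PU.1-/-, to very different extents. Tfec, a relative of Mitf that is abundant in macrophages, had 9.65 FPKM (WT) and 0.120 FPKM (PU.1-/-), which gives a ratio of 0.0124 [0.00252 to 0.0365] from about 212 and 3 reads. Tfe3 had 28.0 and 21.7 FPKM, which gives a ratio of 0.776 [0.714 to 0.842], and Tfeb 9.98 and 8.10 FPKM, which gives a ratio of 0.811 [0.686 to 0.960]. Of the 3 relatives, 1 was thus called lower at 2-fold. The counting intervals of all 3 lay below 1, while Mitf stood at 1.01. Signals from other skin cells held 1 call among the 11 of 12 genes that were measured, and Asip was not analysed here. Kitl, the ligand of KIT, had 12.4 FPKM (WT) and 12.8 FPKM (PU.1-/-), which gives a ratio of 1.03 [0.941 to 1.12]. Edn1 had 9.76 and 10.2 FPKM, and Mgrn1, which acts in agouti signalling, 21.5 and 20.6 FPKM. Dkk3, a secreted protein of the Dickkopf family, had 20.8 and 30.2 FPKM. The called gene, Dkk1, a Wnt inhibitor, is named for that call alone, at 0.249 FPKM (WT) and 0.0929 FPKM (PU.1-/-). Its ratio of 0.373 [0.0558 to 1.36] rested on about 8 and 3 reads, and the interval holds 1.

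Other cell types moved between the libraries, and their part in the members' values was not tested. Spi1 itself had 35.4 FPKM (WT) and 1.45 FPKM (PU.1-/-). All 10 mast cell markers were called lower, with a summed level of 749 FPKM (WT) and 9.78 FPKM (PU.1-/-). Cpa3, a mast cell protease, had 150 and 0.303 FPKM, Cma1 and Tpsb2 had 223 and 224 FPKM in WT and 0.436 and 0.788 FPKM in PU.1-/-, and Mcpt4 was listed at 0 there. All 10 macrophage markers were called lower too, with a summed level of 910 FPKM (WT) and 6.59 FPKM (PU.1-/-), and C1qa, C1qb, C1qc, Adgre1 and Tyrobp were listed at 0. Mitf stood at 5.99 and 6.04 FPKM in the same libraries.

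**Figure D4:**
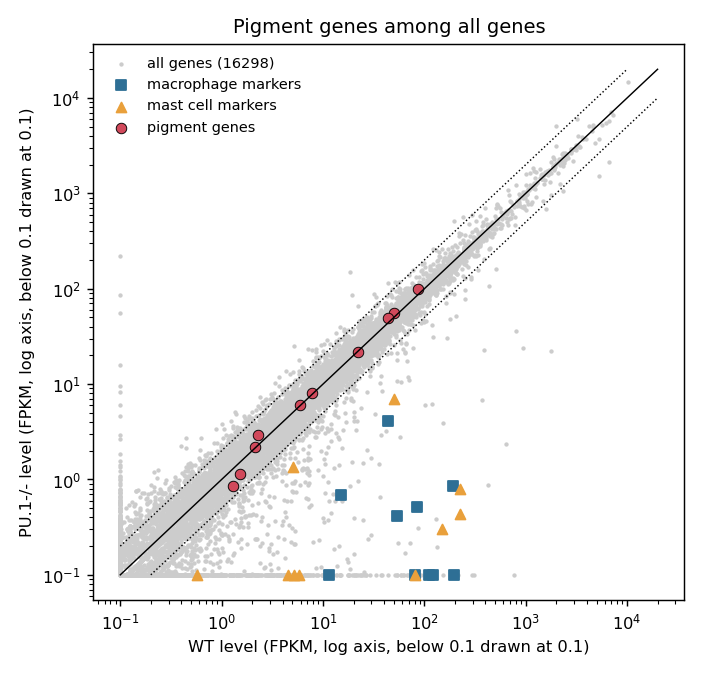
Level of every gene that reached 0.1 FPKM in either library, WT on the horizontal and PU.1-/- on the vertical log axis in FPKM, values below 0.1 drawn at 0.1. The 10 pigment genes (red) lie along the line of equality inside the dotted 2-fold lines, while all 10 macrophage markers (blue squares) and all 10 mast cell markers (orange triangles) lie below them.

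Hair follicle genes, of the hair matrix, the shaft and the inner root sheath, held no call at 2-fold. Of these, 11 of 12 were lower in the PU.1-/- wound, with a median log2 ratio of −0.36. Krt25 and Krt71, keratins of the inner root sheath, had 316 and 211 FPKM in WT and 227 and 144 FPKM in PU.1-/-. Krt27 had 144 and 112 FPKM, and Tchh, trichohyalin, 95.3 and 74.4 FPKM. The 10 keratinocyte markers had a median of 0.20 and the 10 fibroblast markers one of 0.19, with no call in either list. Krt14 of basal epidermis had 4659 FPKM (WT) and 5195 FPKM (PU.1-/-). Dcn, with 690 and 959 FPKM, rose most of the 10 fibroblast markers. Col3a1, the most abundant of them, had 1042 and 1110 FPKM, and 1 of the 10 was lower in PU.1-/-. The median of the pigment genes, 0.06, lay between these values, with 7 members above 0 and 3 (Tyrp1, Gpr143 and Oca2) below. In the deposited scaling the counting intervals of these 3 hold a ratio of 1, as do those of all others but Dct and Pmel. Whether hair follicle content bears on the pigment genes was not tested.

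Schwann cell markers, from the other neural crest type of skin that shares Sox10, had a median of 0.24, with 1 of 10 called higher and 2 called lower. Cdh19, a cadherin of Schwann cell precursors, had 1.24 FPKM (WT) and 2.95 FPKM (PU.1-/-), which gives a ratio of 2.38 [1.77 to 3.20]. Mbp, a myelin protein, had 9.02 FPKM (WT) and 11.6 FPKM (PU.1-/-). Ncmap, another myelin protein, had 1.34 and 0.579 FPKM, which gives a ratio of 0.433 [0.234 to 0.829]. The lower call besides it, Pmp2, was below 1 FPKM in both libraries. All 10 skeletal muscle markers were higher in PU.1-/-, with a median of 0.85 and 3 called, among them Myh8 (294 and 591 FPKM). Whether the share of muscle bears on the pigment genes was not tested.

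**Figure D5:**
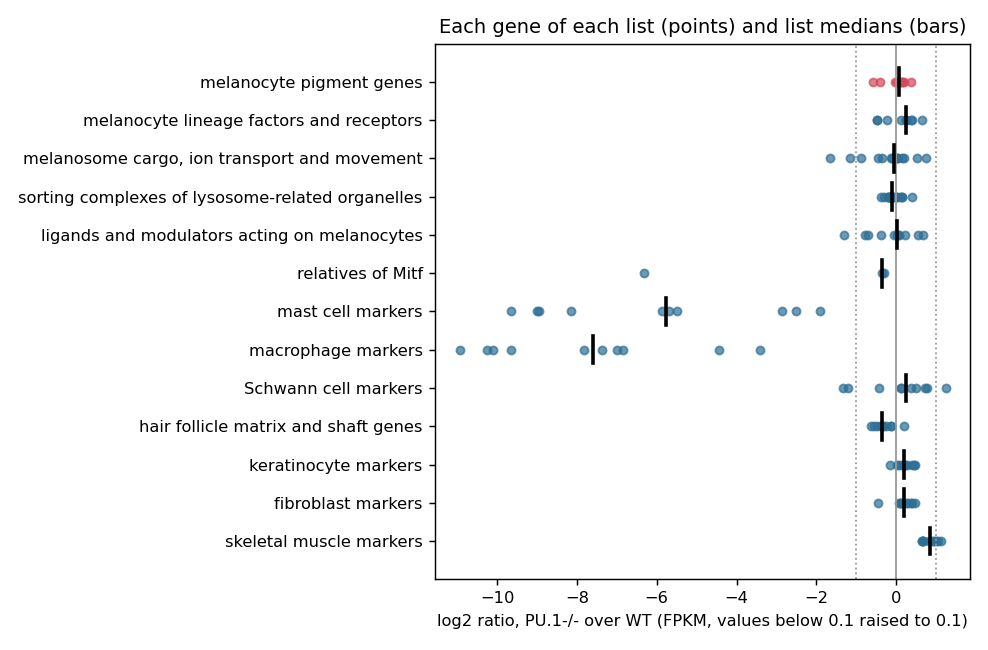
The log2 ratio of PU.1-/- over WT for every gene of each list (points) and the list's median (black bar), with dotted lines at 2-fold. The pigment genes (top row) stay between −0.58 and 0.38, the mast cell and macrophage markers lie far to the left, and the single far point among the relatives of Mitf is Tfec.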

How the data were processed

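Skin wounds of WT and PU.1-/- mice were sequenced as 1 mRNA library per genotype at 24 h. The authors deposited FPKM values from stranded libraries, read as single-end reads of 75 bases and mapped to mm10. The study's methods name Cuffnorm for these values, while the submitters' processing notes name TopHat2 2.1.1, Bowtie2 2.2.8, SAMtools 0.1.18 and Cuffdiff 2.2.1, so which program made them is not settled. The sources used here do not name the annotation. The genes were grouped by the genotype label, values below 0.1 FPKM were raised to 0.1, and a ratio of at least 2 was called. With 1 library per genotype no p-value was computed.

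Reads were estimated. Among genes below 2 FPKM in WT, 459 had a value 1.15 times that in PU.1-/-, within 0.001, as equal reads give. Genes with 1 read against 2, 3 or 4 gave the worth of 1 read per kilobase (transcript length less 200 nt), 0.0724 FPKM (WT) and 0.0630 FPKM (PU.1-/-), from the densest 72 of 239 and 57 of 167 genes (within 1% of the peak). Transcript lengths and positions are from GENCODE M21 on GRCm38, the assembly of mm10, by symbol, with the longest RefSeq-linked transcript. Promoter starts are from RefSeq and differ from these positions for Dct, Tyrp1 and Mc1r. That of Dct is at 118052246, so motif distances are not counted from the gene positions given. A total of 7250 genes in WT and 7458 in PU.1-/- were listed at 0.

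Members and lists were chosen with earlier results of these data known. Named are all members, the 4 most abundant genes of each of the 12 lists and the genes of each list called with at least 1 FPKM. From these, examples are given, besides Spi1, the sex genes and neighbours of members. The pigment cell markers Sox10, Slc24a5 and Trpm1 are given as well. Kit, Dkk1 and Pmp2 are named outside this rule. The functions were tested on simulated data. Floors, pseudocounts, scalings, a filter, another fold and another transcript length were tried. Calculations used numpy 2.4.6, pandas 2.3.3 and scipy 1.17.1 in Python 3.11.15, and plots matplotlib 3.10.9.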

Additional observations from a re-analysis of the deposited data

How the results depend on the processing

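Counts of 0 members called lower and 0 called higher were also found with a floor of 1 FPKM, a pseudocount of 0.1 or 1 FPKM, equal FPKM sums, the median of abundant genes set to 0, members of at least 1 FPKM, and a 1.5-fold limit. Only the 1.5-fold limit could have changed these counts, and Oca2, at a log2 ratio of −0.58, lay just inside it. Floors and pseudocounts draw ratios towards 1, the filter drops no member, and the scalings shift log2 ratios by at most 0.05. The members' median log2 ratio ran from 0.05 to 0.11 under the settings tried. Of 70 member values under the alternatives, 29 could not move (the filter, the transcript length, and the floor for all members but Oca2). The other 41 stayed within their counting intervals, which is no check of the ratios. The scalings shift log2 ratios by less than the reach of any member's interval, and the floor and pseudocounts move the abundant members little. With equal FPKM sums, which add 0.05 to each log2 ratio, Tyrp1 turned from −0.04 to 0.01 and 4 counting intervals lay above 1, those of Dct, Pmel, Mlana and Slc45a2. The shortest transcript in place of the longest, an alternative chosen after the data were seen, changes the interval of Mitf alone. With 1 library per genotype, no replicate could be left out and the spread between animals is unknown. No paired analysis was possible because each genotype has 1 library. Intervals and estimated reads depend on the transcript lengths, which may differ from those the authors used, and are least certain for Gpr143 and Oca2, which have the fewest reads. The order of levels between genes depends on transcript lengths too.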
